A study of Mus musculus with 16 samples.

Results

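Dorsal skin of mice that received both a low AhR ligand diet and DNCB (LowAhR+AD) was compared with dorsal skin of mice that received neither (Cont), with 4 libraries in each group, which are 8 of the 16 libraries of the series. The 8 libraries were chosen by their group labels and by no measured value. All mice were wild type (WT), male and of the C57BL/6N strain, were bought at 3 weeks of age and were kept for 1 week before the diets began. Cont mice ate normal chow, and no treatment of their skin is given in the sources used here. LowAhR+AD mice ate a diet low in ligands of the aryl hydrocarbon receptor (AhR) for 12 weeks, on paper bedding without such ligands, and were 16 weeks old at the end. From week 2 of the diet on, 1% 2,4-dinitrochlorobenzene (DNCB), a hapten that sensitises and inflames skin, was put on the dorsal skin 2 times a week in acetone and olive oil. Diet, bedding, DNCB and its solvent therefore cannot be told apart in this comparison. The 4 LowAhR libraries, from mice that had the diet and bedding without DNCB, are given beside some genes as levels only, without a test. The fit behind the p-values used all 16 libraries. It thus also held 4 libraries of mice with diet, DNCB and the herbal extract BJIKT, given by mouth at 1 g/kg per day. Levels of that group are not described here.

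The epidermis renews from basal keratinocytes, which make the keratins Krt5 and Krt14. On their way to the surface the cells switch to Krt1 and Krt10 and then build the cornified envelope from loricrin (Lor), involucrin (Ivl) and small proline-rich (SPRR) and late cornified envelope (LCE) proteins, which transglutaminases link together. Many of these genes lie side by side in the epidermal differentiation complex. In wounded or inflamed epidermis the stress keratins Krt6a, Krt6b, Krt16 and Krt17 and the calgranulins S100a8 and S100a9 are known to be switched on. AhR is a ligand-activated transcription factor which pairs with ARNT, binds DNA at the core sequence GCGTG and induces Cyp1a1, Cyp1b1 and its own repressor, Ahrr.

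Between 7080508 and 8051425 reads were counted on genes in the Cont libraries and between 11336051 and 13467477 in the LowAhR+AD libraries, so that depth and group could not be told apart. Levels are counts per 1000000 counts (CPM), with library sizes scaled by TMM factors. A count of 0 allowed up to 0.229 to 0.388 CPM (3 counts), a limit that covers counting error only. LowAhR+AD replicate 1 stood apart, since 38.2% of the genes for which its group predicted 20 to 40 counts had no count there. In any other library this share was at most 13.6%. Values without LowAhR+AD replicate 1 are given beside some of the results. Where they are not given, numbers of called genes can still differ, as in the LCE list, with 8 instead of 6 higher. LowAhR+AD replicate 3 stood apart in genes of late epidermal differentiation. In bulk skin, fewer cells of a type and less RNA per cell cannot be told apart. The Cont libraries held the basal and suprabasal keratins of skin, with 596 to 892 CPM of Krt14 and 1714 to 2606 CPM of Krt10, together with muscle and fat transcripts.

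Of 14854 genes with enough counts to be tested, 3233 (21.8%) differed between LowAhR+AD and Cont at an adjusted p under 0.05, 1827 (12.3%) of them higher and 1406 (9.47%) lower in LowAhR+AD. The 2 groups did not overlap in 1923 tested genes (12.9%) with LowAhR+AD above and in 1747 (11.8%) with LowAhR+AD under Cont. The median log2 fold change of all tested genes was 0.045. Genes of stress keratins, SPRR, S100A, antimicrobial and hair shaft lists were the most often higher of the 41 gene lists, and genes of skeletal muscle and fat were the most often lower, as the plot of called members by list shows. Lists are described by counts and medians, to be read beside these shares. The fit that left out LowAhR+AD replicate 1 called 3486 genes, 1896 of them higher.

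**Figure D1:**
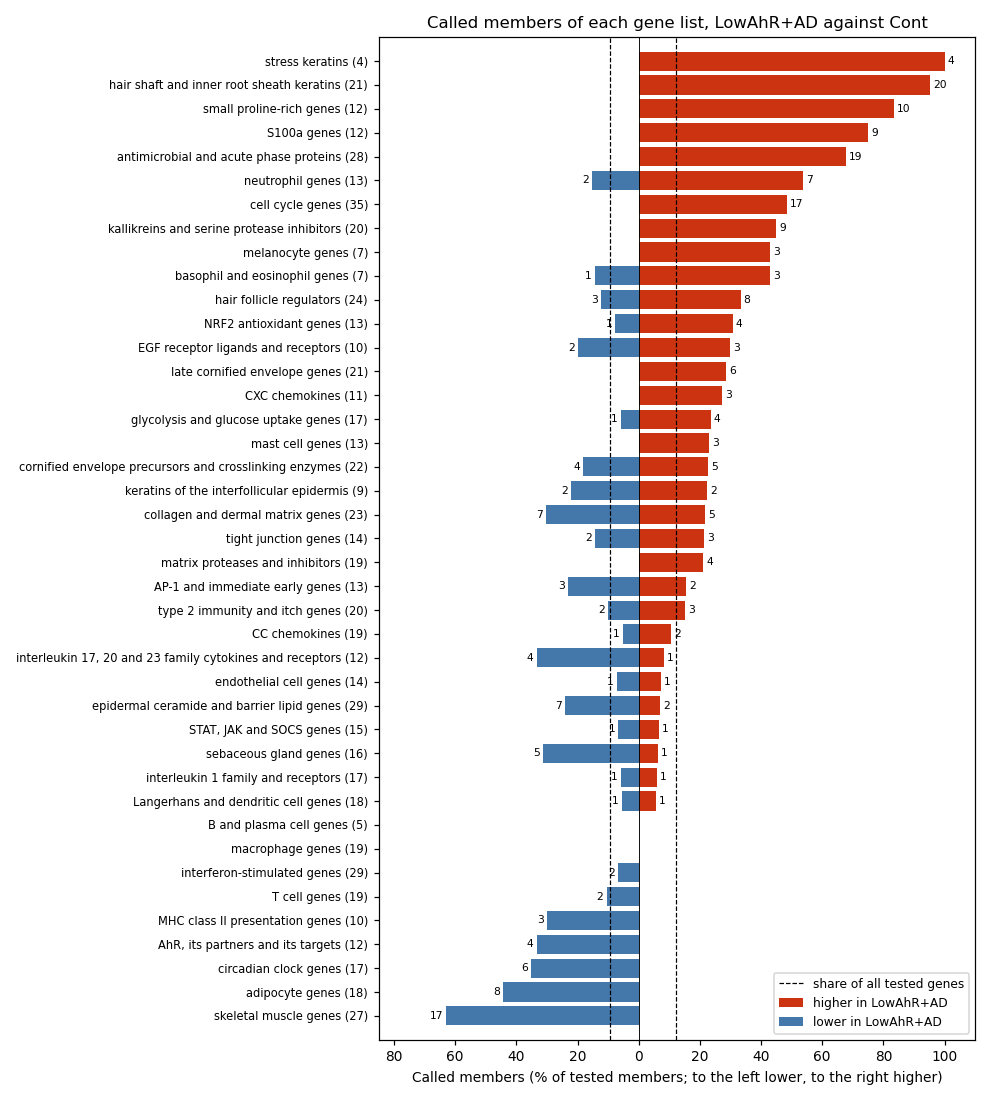
Share of the tested members of each of the 41 gene lists that were called higher (bars to the right) or lower (bars to the left) in LowAhR+AD than in Cont at an adjusted p under 0.05 from edgeR, with the number called at the end of each bar and the number tested in parentheses. The dashed lines mark the shares of all tested genes, 12.3% higher and 9.47% lower. All 4 tested stress keratins and 20 of 21 hair keratins were higher, and 17 of 27 muscle genes were lower.

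In the epidermal differentiation complex on chromosome 3 (chr3:90511034-93564645, mm10, from S100a1 to S100a10), 30 of 58 tested genes were higher in LowAhR+AD, 3 were lower and the median log2 fold change was 1.71. This stretch was bounded after its values were seen. The 3 lower genes were Lor, Flg2 and Kprp, and among the higher ones were genes of the SPRR, LCE3 and S100A families. The SPRR proteins are small cross-linked parts of the cornified envelope. Of 12 tested SPRR genes 10 were higher and 0 lower, with a median log2 fold change of 4.65, and without LowAhR+AD replicate 1 all 12 were higher, while limma voom called 4, without Sprr2d and Sprr2h. Sprr1b stood at 61.2, 479, 305 and 344 CPM in LowAhR+AD replicates 1 to 4 and at 12.6, 10.7, 11.7 and 11.1 CPM in Cont replicates 1 to 4 (log2 fold change 4.69, standard error 0.51, edgeR adjusted p = 4.78e-05). The groups were far apart, and replicate 1 was the lowest of LowAhR+AD. Sprr1a was at 1754 ± 1199 CPM (SD, n = 4) in LowAhR+AD and 449.9 ± 179 CPM in Cont, 3.90 times the level (log2 fold change 1.96, standard error 0.44, edgeR adjusted p = 0.00435). Sprr2d had 0, 185, 116 and 34.8 CPM in LowAhR+AD and 0, 5.43, 4.57 and 4.31 CPM in Cont, and the absence of counts in replicate 1 made the groups overlap (log2 fold change 4.54, standard error 1.15, edgeR adjusted p = 0.00932). Sprr2d was not called when only the 8 libraries were fitted. Sprr2h, chosen after its values were seen, had 7.02, 118, 118 and 69.5 CPM against 2.70, 0, 2.59 and 2.99 CPM (log2 fold change 5.22, standard error 0.90, edgeR adjusted p = 0.000792), with 6.27 to 49.2 CPM in the LowAhR libraries. Reads of 1 Sprr2 gene may be counted on another, as their sequences are alike, and single members are uncertain. Sprr3 was not tested, with 0, 0, 0.777 and 0 CPM in LowAhR+AD and 0 counts in Cont. Sprr2b and Sprr4, the 2 tested members not called, reached 5.15 ± 4.02 and 3.38 ± 3.31 CPM, and both were called without LowAhR+AD replicate 1 (edgeR adjusted p = 0.0327 and 0.0144), Sprr2b also without Cont replicate 1 (edgeR adjusted p = 0.0189).

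Because the SPRR genes moved together, their promoters were searched for TGANTCA, the site bound by AP-1, on both strands in a window from 250 bases before to 50 bases after each RefSeq start site (GRCm38.p6, the same assembly as mm10). This motif was chosen after the values were seen. It was found in 9 of 14 SPRR windows (64.3%), in 0 of 20 LCE windows and in 7.81% of all 32851 windows. The SPRR genes are neighbours and the Sprr2 sequences are alike, so that their windows are not independent of each other. Of the SPRR genes with the motif, 7 of 8 tested were higher, and of those without it, 2 of 3. The windows of Sprr3 and Sprr4, which are also named above, did not hold the motif, and that of Sprr2b did. The 250 bases before the start site are shown for 4 of the SPRR genes named above, all of which held the motif. They are given 5′ to 3′ on the strand of the gene, with the motif in capitals.
Sprr1a (chr3:92485882-92486131, minus strand): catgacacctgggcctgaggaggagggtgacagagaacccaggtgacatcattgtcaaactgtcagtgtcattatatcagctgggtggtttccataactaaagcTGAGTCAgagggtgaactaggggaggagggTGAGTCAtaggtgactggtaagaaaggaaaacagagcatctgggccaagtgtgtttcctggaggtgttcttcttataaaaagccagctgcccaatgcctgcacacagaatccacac
Sprr1b (chr3:92438780-92439029, minus strand): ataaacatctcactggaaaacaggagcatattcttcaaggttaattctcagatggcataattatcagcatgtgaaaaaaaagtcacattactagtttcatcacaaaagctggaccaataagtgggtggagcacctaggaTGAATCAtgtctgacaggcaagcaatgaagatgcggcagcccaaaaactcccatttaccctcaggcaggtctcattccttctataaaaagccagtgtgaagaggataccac
Sprr2d (chr3:92338890-92339139, plus strand): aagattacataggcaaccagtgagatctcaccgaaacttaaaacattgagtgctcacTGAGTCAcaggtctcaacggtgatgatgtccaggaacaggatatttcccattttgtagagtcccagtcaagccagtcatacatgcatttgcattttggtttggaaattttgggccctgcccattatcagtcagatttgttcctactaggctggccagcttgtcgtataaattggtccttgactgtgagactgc
Sprr2h (chr3:92385435-92385684, plus strand): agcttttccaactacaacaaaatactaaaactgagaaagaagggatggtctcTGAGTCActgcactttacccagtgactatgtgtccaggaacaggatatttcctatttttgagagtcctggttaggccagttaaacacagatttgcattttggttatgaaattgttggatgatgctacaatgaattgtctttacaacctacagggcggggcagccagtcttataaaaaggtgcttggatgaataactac
The motif began 111 bases before the start site in Sprr1b, 146 and 116 bases before it in Sprr1a, 193 in Sprr2d and 198 in Sprr2h. None of the 4 windows held GCGTG, the core searched for in the AhR genes. Of all 14 SPRR windows 2 held it (14.3%, against 32.4% of all windows). These were Sprr2f and Sprr2i, which were both called higher. A match describes the letters only.

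Of the major envelope and filament-packing genes, Lor and Flg2 were lower and Ivl was not called. Lor, whose protein is the bulk of the envelope, had 222, 718, 3132 and 289 CPM in LowAhR+AD replicates 1 to 4 and 8617, 6486, 6063 and 4943 CPM in Cont (log2 fold change -2.58, standard error 0.73, edgeR adjusted p = 0.0170). The groups did not overlap, but replicate 3 of LowAhR+AD was more than the other 3 together. Lor was no longer called without LowAhR+AD replicate 2, with a log2 fold change of -2.41 (edgeR adjusted p = 0.0515). Flg2, a filaggrin relative, had 14.9, 74.7, 492 and 47.3 CPM against 1440.5, 1529, 1541 and 1676 CPM (log2 fold change -3.30, standard error 0.86, edgeR adjusted p = 0.0110), again highest in replicate 3. Ivl had 33.8, 217, 320.1 and 189 CPM against 218, 241, 301 and 319 CPM, with overlap (log2 fold change -0.50, standard error 0.43, edgeR adjusted p = 0.443). LowAhR libraries lay at 1536 to 4019 CPM in Lor, 785 to 1144 CPM in Flg2 and 251 to 382 CPM in Ivl. Kprp, a keratinocyte proline-rich protein, was lower as well, at 365 ± 268 CPM (SD, n = 4) against 1336 ± 281 CPM (log2 fold change -1.87, standard error 0.51, edgeR adjusted p = 0.0138). Tgm3, a transglutaminase, and Rptn, a fused-type S100 protein of the envelope, were higher (2.57 and 2.80 on the log2 scale, edgeR adjusted p = 0.00259 and 0.00953), both chosen after their values were seen, and limma voom did not call Rptn. In all, 5 of the 22 tested envelope genes were higher and 4 lower, with a median of -0.074, and without LowAhR+AD replicate 1 the counts were 7 and 4.

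The LCE genes were divided by subfamily. All 6 tested Lce3 genes were called higher, and none of the 14 Lce1 genes and neither Lce6a was called. By limma voom 1 LCE gene was higher, which was not Lce3d, and 2 were lower. Lce3c had 26.02, 459, 526 and 200.4 CPM in LowAhR+AD and 24.3, 3.88, 17.03 and 17.7 CPM in Cont (log2 fold change 4.27, standard error 0.84, edgeR adjusted p = 0.00187). Lce3d had 19.3, 209, 107 and 71.8 CPM against 1.93, 0.904, 3.83 and 1.20 CPM (log2 fold change 5.68, standard error 1.07, edgeR adjusted p = 0.00135). In both, no LowAhR+AD library reached down to Cont and replicate 1 was the lowest. Lce1a1 had 54.4, 683, 2828 and 191 CPM against 2621, 1640.3, 1852 and 1461 CPM (log2 fold change -1.01, standard error 0.77, edgeR adjusted p = 0.388). In Lce1m, chosen after its values were seen, LowAhR+AD stood at 1.76, 13.9, 378 and 17.8 CPM and Cont at 461, 489, 540.0 and 798 CPM, without overlap but with an adjusted p of 0.132 from edgeR. Replicate 3 was the highest LowAhR+AD library in both Lce1 genes, and without it 8 LCE genes were called lower, Lce1a1 and Lce1m among them (log2 fold change -2.61 and -5.68, edgeR adjusted p = 0.0139 and 0.00156).

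Of 12 tested S100A genes, which encode small calcium-binding proteins, 9 were higher and 0 lower (median 1.54). S100a8 had 59.4, 1276, 381 and 673 CPM in LowAhR+AD and 3.47, 2.84, 9.75 and 11.7 CPM in Cont (log2 fold change 6.42, standard error 0.77, edgeR adjusted p = 6.47e-05). S100a9, its partner in calprotectin, had 55.3, 1144, 313 and 727 CPM against 16.8, 15.6, 18.9 and 25.02 CPM (log2 fold change 4.87, standard error 0.69, edgeR adjusted p = 0.000229). Both pairs of groups were apart, and in both genes replicate 1 was the lowest and replicate 2 the highest LowAhR+AD library. The LowAhR libraries had 18.3 to 40.7 CPM of S100a8 and 15.3 to 42.3 CPM of S100a9. Abundant members rose less: S100a6 was at 1858 ± 315 CPM (SD, n = 4) against 654 ± 35.5 CPM, S100a11 at 1286 ± 584 against 508 ± 81.97 CPM, S100a14 at 1185 ± 189.5 against 659 ± 69.8 CPM and S100a16 at 839.9 ± 231 against 281 ± 38.2 CPM. Their log2 fold changes were 1.51, 1.34, 0.85 and 1.58 (edgeR adjusted p = 0.000356, 0.00761, 0.0133 and 0.000394). S100a10 had 225, 334, 349.5 and 424 CPM against 196, 224, 244 and 230.0 CPM and was not called (log2 fold change 0.58, standard error 0.22, edgeR adjusted p = 0.0735), but was without LowAhR+AD replicate 1 (edgeR adjusted p = 0.0192). S100a3, a gene of the hair cuticle, had 667 ± 233 CPM against 5.88 ± 4.64 CPM and was chosen after its values were seen (log2 fold change 6.82, standard error 1.29, edgeR adjusted p = 0.00144), and limma voom did not call it.

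All 4 stress keratins were higher in LowAhR+AD, with a median log2 fold change of 5.90. Krt6a reached 14426, 19556, 4082 and 13551 CPM in LowAhR+AD against 235, 109, 260.1 and 124 CPM in Cont, 70.9 times the mean level (log2 fold change 6.15, standard error 0.67, edgeR adjusted p = 4.78e-05). Krt6b had 143, 7210.4, 4625 and 3231 CPM against 15.1, 0, 4.20 and 7.18 CPM (log2 fold change 9.16, standard error 1.32, edgeR adjusted p = 0.000232), and the lowest LowAhR+AD value was that of replicate 1. Krt16, the usual partner of Krt6a, had 322, 1673, 1004 and 1166 CPM against 17.8, 8.14, 26.8 and 30.05 CPM (log2 fold change 5.65, standard error 0.68, edgeR adjusted p = 6.85e-05). Krt17 had 4923, 4559, 1299.7 and 4053 CPM against 633, 763, 1085 and 769 CPM (log2 fold change 2.19, standard error 0.37, edgeR adjusted p = 0.000725). None of the 4 overlapped between the groups, and in Krt6a and Krt17 the lowest LowAhR+AD library was replicate 3, not replicate 1. LowAhR libraries lay at 77.9 to 601 CPM in Krt6a and 4.35 to 36.99 CPM in Krt16. Krt6a and Krt6b are near-identical copies on chromosome 15 (Krt6b at chr15:101676023-101680293 and Krt6a at chr15:101689928-101694305), so that the division of reads between them is uncertain.

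The basal keratins Krt14 and Krt5 were higher and the keratins of the upper layers differed between LowAhR+AD libraries. Krt14 had 3353, 3305, 3269 and 4193 CPM in LowAhR+AD and 829, 596, 892 and 615 CPM in Cont (log2 fold change 2.27, standard error 0.27, edgeR adjusted p = 6.04e-05), with little spread in either group. Krt5 had 6185, 2088, 1530.0 and 2132 CPM against 1343, 917, 1442 and 1033 CPM (log2 fold change 1.33, standard error 0.35, edgeR adjusted p = 0.0108), highest in replicate 1, and its log2 fold change was 0.68 without that library (edgeR adjusted p = 0.0279). Krt5 was not called when only the 8 libraries were fitted. Krt10, the main suprabasal keratin, had 20.2, 206, 4021 and 151 CPM in LowAhR+AD replicates 1 to 4 and 1714, 2064, 2155 and 2606 CPM in Cont. Replicates 1, 2 and 4 lay under every Cont library and replicate 3 above every one. The difference was not called (log2 fold change -0.96, standard error 1.02, edgeR adjusted p = 0.553), while without replicate 3 the log2 fold change was -4.08 (edgeR adjusted p = 0.00315). Krt1 had 126, 304, 3495 and 252 CPM against 656, 449.5, 676 and 695 CPM with the same library standing apart (log2 fold change 0.75, standard error 0.92, edgeR adjusted p = 0.614). Krt2 and Krt77, which are made by interfollicular skin of trunk and ear, were nearly gone, with 0, 2.22, 0.311 and 0.723 CPM of Krt2 in LowAhR+AD against 30.7, 66.02, 6.91 and 31.1 CPM in Cont and 0, 0.0821, 0.389 and 0.161 CPM of Krt77 against 26.3, 17.8, 15.1 and 9.22 CPM. Both were called lower (log2 fold change -5.36 and -6.65, edgeR adjusted p = 0.00779 and 0.000851). Of the 9 tested keratins of this list, 2 were higher and 2 lower, with a median log2 fold change of -0.96. Krt15, a further member of the list, was not called. Without LowAhR+AD replicate 3, 4 instead of 2 were lower.

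**Figure D2:**
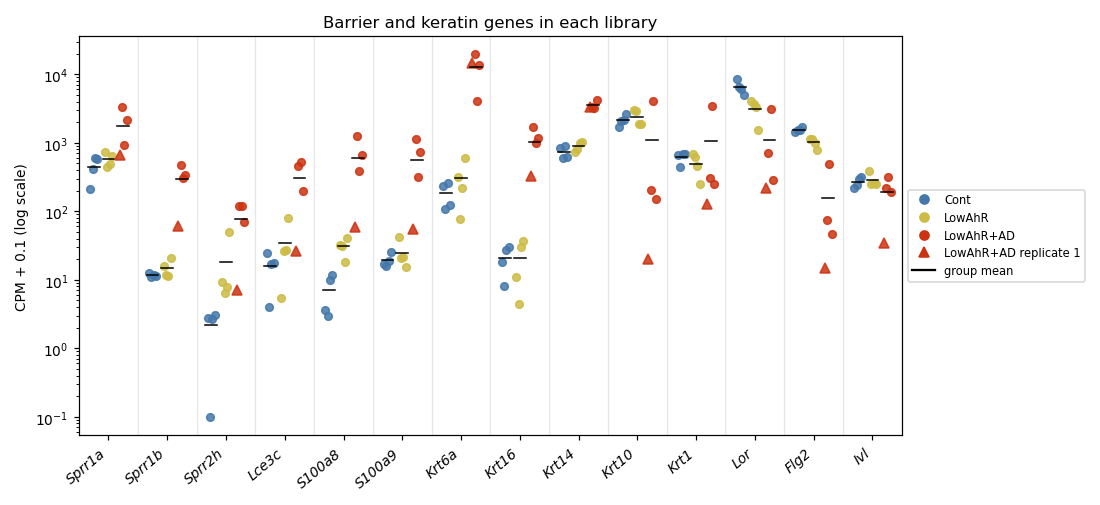
Level of 14 barrier and keratin genes in each Cont, LowAhR and LowAhR+AD library, as CPM with 0.1 added on a log axis. Each point is 1 library, the triangle is LowAhR+AD replicate 1 and the black line is the group mean. Krt6a, Krt16, S100a8 and S100a9 of LowAhR+AD lie above all Cont points, whereas Krt10 of LowAhR+AD runs from 20.2 to 4021 CPM on both sides of Cont.

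Of 20 tested kallikreins and protease inhibitors, which set the pace of shedding, 9 were higher and 0 lower, with a median of 1.20 (12 higher without LowAhR+AD replicate 1, 4 by limma voom). Klk6 had 121, 1360.3, 306 and 1259 CPM in LowAhR+AD and 10.5, 13.8, 17.4 and 15.9 CPM in Cont, without overlap (log2 fold change 5.72, standard error 0.63, edgeR adjusted p = 4.78e-05). Klk7, which cleaves the adhesion proteins of the horny layer, had 4971 ± 2203 CPM (SD, n = 4) against 1944 ± 342 CPM (log2 fold change 1.35, standard error 0.35, edgeR adjusted p = 0.0104). Spink5, the kallikrein inhibitor lost in Netherton syndrome, had 340.4, 1452, 1751 and 1398 CPM against 1239, 1226, 1457 and 1626 CPM and was not called (log2 fold change -0.17, standard error 0.34, edgeR adjusted p = 0.774). Spink12, a Kazal-type inhibitor with 0 counts in all Cont libraries, had 268, 46.3, 29.8 and 143 CPM in LowAhR+AD, at least 324-fold higher than 3 counts in each Cont library (edgeR adjusted p = 0.000261), and had the largest fitted rise of the called genes without overlap and with a group mean of at least 50 CPM. Of 14 tested tight junction genes, 3 were higher and 2 lower, with a median of -0.094, against 12.3% and 9.47% of all tested genes. Cgn, cingulin, a scaffold protein of the junction, had 13.2 ± 5.42 CPM against 59.4 ± 20.1 CPM (log2 fold change -2.17, standard error 0.37, edgeR adjusted p = 0.000725). Cldn1, a claudin whose loss opens the epidermal barrier, had 178, 222, 138 and 152 CPM against 125, 108, 121 and 125 CPM and was not called (edgeR adjusted p = 0.0946) although the groups did not overlap. Without Cont replicate 4, 1 tight junction gene was higher instead of 3.

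Antimicrobial and acute phase genes were among the most changed. Of 28 tested, 19 were higher and 0 lower (1 lower without Cont replicate 1), with a median log2 fold change of 4.43, and 22 were higher without LowAhR+AD replicate 1 and 12 by limma voom. Saa3, an acute phase apolipoprotein made in inflamed tissue, had 562, 3449.9, 101.3 and 3042 CPM in LowAhR+AD and 5.52, 1.94, 2.47 and 1.80 CPM in Cont (log2 fold change 9.25, standard error 1.16, edgeR adjusted p = 9.6e-05). Replicates 2 and 4 were high and replicate 3 was the lowest of its group, still above every Cont library. BC100530, a member of the stefin A family of cysteine protease inhibitors, had 390.1, 2973, 6346 and 1817 CPM against 56.7, 18.9, 50.5 and 48.2 CPM (log2 fold change 6.05, standard error 0.76, edgeR adjusted p = 9.6e-05), highest in replicate 3 and lowest in replicate 1. Stfa3, of the same family, had 66.9, 574, 3318 and 399.7 CPM against 82.5, 66.4, 100.7 and 46.4 CPM, with an overlap through replicate 1 (log2 fold change 3.88, standard error 0.88, edgeR adjusted p = 0.00476). The stefin A genes are close copies, and reads of 1 member may be counted on another. Slpi, which inhibits neutrophil elastase, had 85.9, 132, 47.02 and 204 CPM against 2.05, 2.58, 1.11 and 4.19 CPM (log2 fold change 5.55, standard error 0.68, edgeR adjusted p = 8.41e-05), and Lcn2, which withholds iron from bacteria, had 73.3, 123, 7.69 and 115 CPM against 8.73, 4.01, 15.4 and 4.31 CPM (log2 fold change 3.30, standard error 0.77, edgeR adjusted p = 0.00569). Both were chosen after their values were seen, and Lcn2 overlapped through LowAhR+AD replicate 3 and was not called by limma voom. Defb6, a defensin, lay at 65.6, 643, 688 and 396 CPM against 707, 979.6, 1197 and 1017 CPM, under Cont without overlap but not called (edgeR adjusted p = 0.0909).

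Of the chemokines, Cxcl5 changed most. Cxcl5, which attracts neutrophils, had 59.3, 36.2, 12.1 and 126 CPM in LowAhR+AD and 0 counts in every Cont and LowAhR library, at least 156-fold higher than 3 counts in each Cont library (edgeR adjusted p = 0.00163). Cxcl14, a chemokine made by epithelium, had 1048, 560.2, 230.5 and 718 CPM against 121, 113, 177 and 83.9 CPM (log2 fold change 2.37, standard error 0.36, edgeR adjusted p = 0.000354). Ccl27a, made by keratinocytes and known to draw skin-homing T cells, fell from 2343, 1940.2, 2302 and 2383 CPM in Cont to 729, 315, 477 and 456 CPM in LowAhR+AD (log2 fold change -2.18, standard error 0.35, edgeR adjusted p = 0.000439), without overlap. In all, 3 of 11 tested CXC chemokines were higher and 0 lower, and of 19 CC chemokines 2 were higher and 1 lower. The CC chemokines rested on single libraries, with 4 higher without LowAhR+AD replicate 1. Without LowAhR+AD replicate 4, 1 was higher and 3 lower, without Cont replicate 2, 3 or 4, 1 was higher, and without Cont replicate 1, 2 were lower.

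Il24, a cytokine of the interleukin 20 group that acts on keratinocytes, was the 1 called rise of the 12 tested genes of its list. It had 40.8, 17.6, 1.32 and 11.1 CPM in LowAhR+AD and 0 counts in every Cont library, at least 47.1-fold higher than 3 counts (edgeR adjusted p = 0.00214). By limma voom neither Cxcl5 nor Il24 was called. Subunits of the receptors for this group were lower: Il20rb had 59.8 ± 28.5 CPM (SD, n = 4) against 165 ± 10.4 CPM (log2 fold change -1.47, standard error 0.30, edgeR adjusted p = 0.00229) and Il22ra1 had 10.2 ± 3.78 CPM against 43.4 ± 17.4 CPM (log2 fold change -2.09, standard error 0.38, edgeR adjusted p = 0.00115). Il22ra2, the soluble antagonist of IL-22, had 0, 0, 1.55 and 0 CPM against 21.8, 17.1, 19.99 and 24.2 CPM (log2 fold change -5.68, standard error 1.41, edgeR adjusted p = 0.00796). Il1b had 27.2, 26.5, 40.4 and 82.7 CPM against 7.57, 6.33, 10.98 and 11.6 CPM, without overlap (log2 fold change 2.27, standard error 0.61, edgeR adjusted p = 0.0129), and without LowAhR+AD replicate 4, the highest, its log2 fold change was 1.78 (edgeR adjusted p = 0.0523). Il1b was not called by limma voom either. Of 17 tested interleukin 1 family genes, 1 was called higher and 1 lower, the latter being Il1r2, the decoy receptor, with 36.4 ± 18.7 CPM against 164 ± 52.3 CPM (log2 fold change -2.17, standard error 0.46, edgeR adjusted p = 0.00285). In the fit without LowAhR+AD replicate 1, 3 of them were higher.

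Of 20 tested genes of type 2 immunity and itch, 3 were higher and 2 lower (median -0.22), with 5 higher without LowAhR+AD replicate 1. Il4ra, the shared receptor chain for IL-4 and IL-13, had 77.996, 122, 59.4 and 195 CPM in LowAhR+AD and 28.2, 45.9, 53.7 and 48.7 CPM in Cont (log2 fold change 1.36, standard error 0.33, edgeR adjusted p = 0.00687), without overlap. Il13ra1 had 24.5, 103, 75.01 and 84.2 CPM against 34.8, 55.2, 47.8 and 40.9 CPM and was not called (log2 fold change 0.68, standard error 0.32, edgeR adjusted p = 0.139). In Il13ra1, replicate 1 lay under every Cont library and the other 3 above every one, and without it the log2 fold change was 0.96 (edgeR adjusted p = 0.00531). Stat3, which acts downstream of many cytokine receptors, had 184, 140.0, 138 and 153 CPM against 96.7, 126, 129 and 90.5 CPM, above Cont without overlap but not called (log2 fold change 0.48, standard error 0.25, edgeR adjusted p = 0.2003). Postn, a matrix protein induced by IL-13, had 58.8, 157, 692 and 207 CPM against 58.8, 52.6, 67.9 and 75.1 CPM (log2 fold change 2.13, standard error 0.54, edgeR adjusted p = 0.00933), and without replicate 3 its log2 fold change was 1.15 (edgeR adjusted p = 0.0554). Limma voom did not call Postn. Retnla, a product of alternatively activated macrophages and of fat, went the other way, from 224, 827, 509 and 524 CPM in Cont to 8.01, 122, 66.7 and 106 CPM in LowAhR+AD (log2 fold change -2.78, standard error 0.74, edgeR adjusted p = 0.0125). Il4, Il31, Ccr8 and Il13 were chosen after their values were seen. Il4, Il31 and Ccr8 had 0 counts in all 8 libraries, which allows up to 0.388 CPM, and Il13 had 0, 0, 0.622 and 0 CPM in LowAhR+AD and 0, 0, 0 and 0 CPM in Cont. Of 15 genes of the STAT, JAK and SOCS families 1 was higher (2 without LowAhR+AD replicate 1), Cish, a brake on cytokine signals (log2 fold change 1.15, standard error 0.33, edgeR adjusted p = 0.0189), and 1 lower, Stat5b (log2 fold change -0.92, standard error 0.27, edgeR adjusted p = 0.0195). Cish was not called without Cont replicate 1 or 3 or LowAhR+AD replicate 4 (edgeR adjusted p = 0.0520, 0.0563 and 0.0665), nor Stat5b without Cont replicate 2 or 3 or LowAhR+AD replicate 3 (edgeR adjusted p = 0.0809, 0.0515 and 0.0599).

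Markers of infiltrating cells differed by cell type. Of 13 tested neutrophil genes 7 were higher and 2 lower (1 lower without Cont replicate 2, Cont replicate 4 or LowAhR+AD replicate 2), and by limma voom 0 were higher and 2 lower. Cxcr2, the receptor for Cxcl5, had 0.229, 9.52, 6.53 and 26.02 CPM in LowAhR+AD against 0.642, 0.129, 0.370 and 0.958 CPM in Cont and was chosen after its values were seen (log2 fold change 4.29, standard error 1.04, edgeR adjusted p = 0.00727), and Clec4d, a lectin receptor of neutrophils and macrophages, had 4.50, 17.1, 13.1 and 26.7 CPM against 0, 0.646, 0.740 and 1.80 CPM (log2 fold change 4.23, standard error 1.00, edgeR adjusted p = 0.00614). The 2 lower genes were Il1r2, described above, and Hcar2, a receptor for hydroxybutyrate and nicotinic acid, with 9.01, 20.6, 22.6 and 35.1 CPM against 50.6, 51.8, 40.3 and 53.99 CPM (log2 fold change -1.17, standard error 0.35, edgeR adjusted p = 0.0245). The call of Hcar2 was the one lost when 1 of those libraries was left out (edgeR adjusted p = 0.0539, 0.0562 and 0.0579). The summed level of the list was 44.03 to 233 CPM in LowAhR+AD and 145 to 268 CPM in Cont. Mast cell genes were higher in 3 of 13 cases: Tpsb2, a tryptase, had 435, 148, 244 and 359.6 CPM against 66.2, 74.03, 108 and 87.8 CPM (log2 fold change 1.82, standard error 0.33, edgeR adjusted p = 0.00106) and Cpa3, a carboxypeptidase, 177 ± 75.1 CPM (SD, n = 4) against 67.7 ± 13.5 CPM (log2 fold change 1.39, standard error 0.34, edgeR adjusted p = 0.00771). Mcpt4, a mast cell chymase, had 258, 118, 131 and 251 CPM against 192, 124, 147 and 138 CPM and was not called (edgeR adjusted p = 0.638). Of 7 basophil and eosinophil genes 3 were higher and 1 lower, while the median log2 fold change was -0.87. Without overlap, 0 of them lay above Cont and 2 lay under it. Their summed level was 0.0763 to 32.2 CPM in LowAhR+AD and 30.2 to 55.4 CPM in Cont. Ccr3, the eotaxin receptor of eosinophils, had 0, 2.22, 6.995 and 4.34 CPM against 0, 0, 0.494 and 0 CPM (log2 fold change 4.63, standard error 1.34, edgeR adjusted p = 0.0195), and Ear1, an eosinophil-associated ribonuclease with close copies, had 0, 1.48, 3.58 and 0.723 CPM against 9.24, 17.4, 13.4 and 11.01 CPM (log2 fold change -3.14, standard error 0.90, edgeR adjusted p = 0.0184). The call was lost for Ccr3 without Cont replicate 1, 2 or 4 (edgeR adjusted p = 0.0510, 0.0551 and 0.0536), when 1 gene of the list was higher, for Ccr3 also by limma voom, and for Ear1 without LowAhR+AD replicate 4 (edgeR adjusted p = 0.0553). Of 19 macrophage genes 0 were called by edgeR, with 3 at an unadjusted p under 0.05, and DESeq2 called 1 higher and 0 lower. Without LowAhR+AD replicate 1, which had the lowest level of C1qb of all 8 libraries (48.7, 258, 432 and 454 CPM in LowAhR+AD and 134, 304, 269 and 248 CPM in Cont), 5 were higher, and without Cont replicate 1 or 2, 1 was higher. Of 5 B and plasma cell genes 0 were called by edgeR, with 0 at an unadjusted p under 0.05, and DESeq2 called 0 higher and 0 lower. Without LowAhR+AD replicate 1, 1 of them was higher, and without LowAhR+AD replicate 3, 1 was lower.

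Part of the MHC class II genes were lower. Cd74, the invariant chain of class II, had 153, 162, 426 and 306 CPM in LowAhR+AD and 1035, 1465, 1373 and 1112 CPM in Cont (log2 fold change -2.25, standard error 0.42, edgeR adjusted p = 0.00128). H2-Ab1, a class II beta chain, had 124, 91.7, 290.0 and 173 CPM against 661, 1042, 1129 and 723 CPM (log2 fold change -2.39, standard error 0.45, edgeR adjusted p = 0.00129). H2-DMa, which loads peptides onto class II, had 17.1 ± 6.13 CPM (SD, n = 4) against 65.7 ± 21.2 CPM (log2 fold change -1.94, standard error 0.37, edgeR adjusted p = 0.00163). These 3 of 10 tested genes were lower without overlap, and the list had a median of -0.97. H2-Aa, the alpha chain that pairs with H2-Ab1, had 19.6, 175, 825 and 389.7 CPM against 365, 710.0, 866 and 731 CPM and was not called (log2 fold change -0.92, standard error 0.65, edgeR adjusted p = 0.343), and reached 960.0 to 1706 CPM in the LowAhR libraries. Cd3g, a chain of the T cell receptor complex, had 0, 0, 0.855 and 0.321 CPM in LowAhR+AD against 8.73, 10.9, 7.40 and 18.6 CPM in Cont (log2 fold change -5.21, standard error 1.14, edgeR adjusted p = 0.00368). Cd3e had 2 counts in all 4 LowAhR+AD libraries together, with 0.642, 2.07, 1.97 and 1.56 CPM in Cont, which was higher by 40.1-fold (95% counting interval 10.9 to 326). Cd3e was called with all libraries (edgeR adjusted p = 0.0222) and not without LowAhR+AD replicate 2 or 4 (edgeR adjusted p = 0.0621 and 0.0622). The other 17 tested T cell genes were not called, so that 2 of 19 were lower, a share near that of all tested genes (9.47%). Of 18 genes of Langerhans and dendritic cells, Cd207 was lower (0, 0.328, 2.10 and 0.562 CPM against 9.63, 10.2, 15.5 and 10.3 CPM, edgeR adjusted p = 0.0492). This call was lost without any of the Cont libraries (edgeR adjusted p = 0.0689 to 0.0943) and without LowAhR+AD replicate 1, 2 or 4 (edgeR adjusted p = 0.0693, 0.113 and 0.108), and without LowAhR+AD replicate 3, 2 genes of the list were lower. Fscn1, an actin-bundling protein of mature dendritic cells and of other motile cells, was higher (180.0, 74.3, 119.9 and 119 CPM against 17.6, 10.7, 19.6 and 12.2 CPM, log2 fold change 3.03, edgeR adjusted p = 5.85e-05). Of 29 interferon-stimulated genes 0 were higher and 2 lower, the RNA sensor Ifih1 (log2 fold change -1.42, standard error 0.34, edgeR adjusted p = 0.00647) and the guanylate-binding protein Gbp3 (log2 fold change -1.60, standard error 0.47, edgeR adjusted p = 0.0214). Without LowAhR+AD replicate 1, 1 of them was higher, and without Cont replicate 1 or LowAhR+AD replicate 2, 1 was lower, since Gbp3 lost its call (edgeR adjusted p = 0.0506 and 0.0632), as it did with only the 8 libraries fitted.

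**Figure D3:**
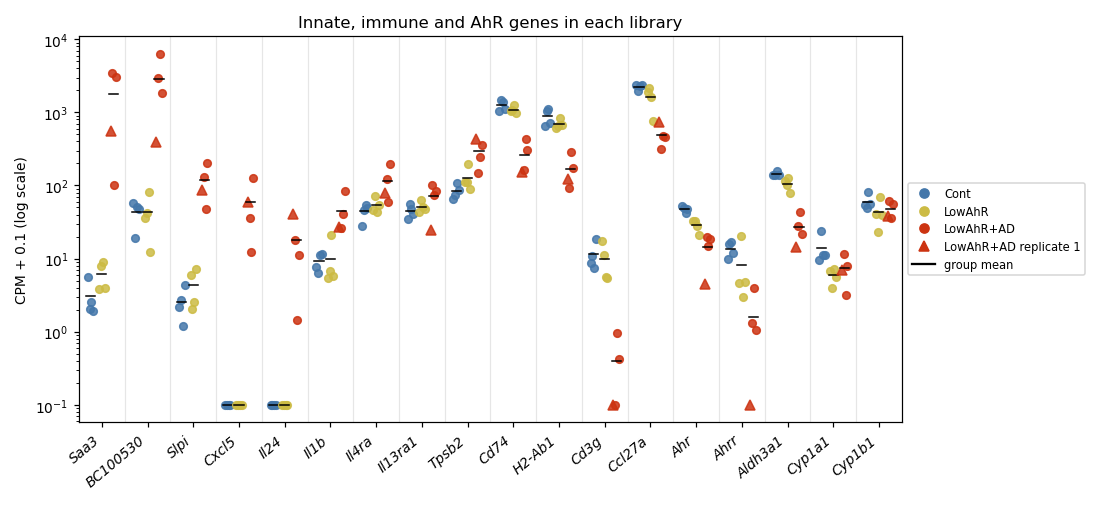
Level of 18 genes of innate defence, immune cells and the AhR pathway in each Cont, LowAhR and LowAhR+AD library, as CPM with 0.1 added on a log axis. Each point is 1 library, the triangle is LowAhR+AD replicate 1 and the black line is the group mean. Cxcl5 and Il24 have points above 0 in LowAhR+AD alone, and Cd74, H2-Ab1, Ccl27a, Ahr and Aldh3a1 of LowAhR+AD lie under all Cont points.

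In the AhR pathway the receptor and its repressor were lower and the CYP1 genes were not called. Ahr had 4.43, 19.8, 14.8 and 18.2 CPM in LowAhR+AD and 51.7, 48.97, 41.5 and 47.9 CPM in Cont, without overlap (log2 fold change -1.73, standard error 0.38, edgeR adjusted p = 0.00356), and 20.9 to 32.3 CPM in LowAhR. The log2 fold change of Ahr without LowAhR+AD replicate 1, the lowest, was -1.44 (edgeR adjusted p = 0.00206). Ahrr had 0, 1.23, 3.81 and 0.964 CPM against 9.76, 15.9, 16.9 and 11.97 CPM (log2 fold change -3.17, standard error 0.94, edgeR adjusted p = 0.0217), and was not called without LowAhR+AD replicate 2 or 4 (edgeR adjusted p = 0.0559 and 0.0602). Cyp1a1 had 6.94, 11.4, 3.11 and 7.87 CPM against 9.50, 23.4, 11.1 and 11.3 CPM, and the groups overlapped (log2 fold change -0.91, standard error 0.53, edgeR adjusted p = 0.240). Cyp1b1 had 37.7, 61.7, 35.8 and 56.1 CPM against 53.1, 49.9, 82.3 and 54.9 CPM, also with overlap (log2 fold change -0.33, standard error 0.29, edgeR adjusted p = 0.463). Aldh3a1, an aldehyde dehydrogenase induced through AhR, had 14.3, 27.5, 43.1 and 21.7 CPM against 139.8, 138, 159 and 137 CPM (log2 fold change -2.43, standard error 0.42, edgeR adjusted p = 0.000836), and Asb2, a further target in lymphocytes that is also made in muscle, had 7.77 ± 2.35 CPM (SD, n = 4) against 22.6 ± 5.82 CPM (log2 fold change -1.54, standard error 0.41, edgeR adjusted p = 0.0130). In all, 0 of 12 tested genes were higher and 4 lower, with a median of -0.40. Arnt, Tiparp and Nqo1, chosen after their values were seen, had log2 fold changes of 0.40, -0.47 and 0.74 (edgeR adjusted p = 0.652, 0.411 and 0.234).

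The core GCGTG was present in the promoter windows of 6 of the 12 genes of the AhR list with a RefSeq entry (Ahrr, Arnt, Cyp1a1, Cyp1b1, Gsta1 and Tiparp) and in 35.2% of all 27025 genes (32.4% of all windows). Of these 6 genes 1 was called lower, Ahrr, and 0 higher, and of the 3 tested genes without the core 1 was lower and 0 higher. Cyp1a1, a target of AhR, and Ahrr, its repressor, were chosen for display by their different calls, after the values were seen. The difference between these genes was not tested, and Ahrr was not called in some fits with 1 library left out. The 250 bases before the start site are shown for both genes, 5′ to 3′ on the strand of the gene, with GCGTG in capitals.
Cyp1a1 (chr9:57697363-57697612, plus strand): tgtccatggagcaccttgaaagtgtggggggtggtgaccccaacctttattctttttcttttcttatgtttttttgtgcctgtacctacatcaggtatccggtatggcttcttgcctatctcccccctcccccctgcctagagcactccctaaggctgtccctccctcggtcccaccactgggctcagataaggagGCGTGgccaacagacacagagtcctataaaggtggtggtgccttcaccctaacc
Ahrr (chr13:74292332-74292581, minus strand): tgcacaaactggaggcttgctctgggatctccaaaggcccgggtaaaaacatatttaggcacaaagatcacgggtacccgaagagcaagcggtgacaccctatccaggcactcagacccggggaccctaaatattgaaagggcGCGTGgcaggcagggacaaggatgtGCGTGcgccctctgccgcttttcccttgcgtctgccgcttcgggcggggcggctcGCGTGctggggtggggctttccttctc
Cyp1a1 held GCGTG at 1 place, 54 bases before the start site, and Ahrr held it at 3 places, between 107 and 27 bases before the start site. Both strands were searched, and neither window held TGANTCA. Sites outside the windows were not searched, and a link between the number of places and the calls was not tested.

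Of 35 tested cell cycle genes, 17 were higher and 0 lower, with a median of 1.13, and the number was 13 to 19 when 1 library was left out and 2 when a change of at least 2-fold was tested. Top2a, topoisomerase II alpha, had 222, 212, 158 and 137 CPM in LowAhR+AD and 48.8, 85.5, 90.9 and 58.1 CPM in Cont (log2 fold change 1.36, standard error 0.28, edgeR adjusted p = 0.00229). Birc5, survivin, had 75.8, 65.3, 61.1 and 58.2 CPM against 20.4, 7.88, 14.7 and 14.5 CPM (log2 fold change 2.18, standard error 0.30, edgeR adjusted p = 0.000201), and Cdk1, the mitotic kinase, had 54.7 ± 28.7 CPM (SD, n = 4) against 16.2 ± 3.11 CPM (log2 fold change 1.75, standard error 0.37, edgeR adjusted p = 0.00268). Mki67 had 126, 92.3, 63.3 and 48.7 CPM against 59.95, 43.8, 70.8 and 42.1 CPM and was not called (log2 fold change 0.61, standard error 0.27, edgeR adjusted p = 0.122), but was without LowAhR+AD replicate 4 (edgeR adjusted p = 0.0474). Ligands of the EGF receptor, which drive keratinocyte growth, went both ways. Epgn, epigen, had 63.95, 306, 48.1 and 163 CPM against 5.39, 3.62, 16.8 and 5.63 CPM (log2 fold change 4.21, standard error 0.80, edgeR adjusted p = 0.00145) and Hbegf had 79.6, 41.5, 17.9 and 65.2 CPM against 5.91, 9.17, 18.8 and 2.75 CPM (log2 fold change 2.48, standard error 0.54, edgeR adjusted p = 0.00356). Ereg, epiregulin, had 11.2, 17.3, 24.2 and 9.07 CPM against 79.98, 59.05, 51.8 and 77.6 CPM (log2 fold change -2.12, standard error 0.44, edgeR adjusted p = 0.00271) and Btc, betacellulin, had 0.0763, 6.24, 6.06 and 4.26 CPM against 54.2, 31.1, 43.4 and 42.6 CPM (log2 fold change -3.36, standard error 0.63, edgeR adjusted p = 0.00139). The receptor gene Egfr had 32.3 ± 4.45 CPM against 43.9 ± 14.5 CPM and was not called (edgeR adjusted p = 0.288). Of 13 AP-1 and immediate early genes 2 were higher and 3 lower. Fosb, a subunit of AP-1, had 1.91, 1.48, 3.50 and 5.38 CPM against 18.7, 45.4, 27.8 and 16.04 CPM (log2 fold change -3.13, standard error 0.57, edgeR adjusted p = 0.00111) and Atf3, a stress-response factor, had 5.05 ± 1.24 CPM against 24.8 ± 11.7 CPM (log2 fold change -2.29, standard error 0.49, edgeR adjusted p = 0.00327). The 2 higher genes were Egr3, which was not called without LowAhR+AD replicate 1 (edgeR adjusted p = 0.0997) or Cont replicate 1 (edgeR adjusted p = 0.0696) or with only the 8 libraries fitted, and Fosl1, an AP-1 subunit of migrating keratinocytes that was chosen after its values were seen (18.2, 15.9, 3.65 and 12.6 CPM against 1.16, 0.258, 0.740 and 0 CPM, log2 fold change 4.52, edgeR adjusted p = 0.00923).

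Lipid genes of the epidermis and the sebaceous gland were lower where called, with few exceptions. Scd3, a stearoyl-CoA desaturase of the sebaceous gland, had 7.33, 13.3, 28.4 and 9.16 CPM in LowAhR+AD and 512, 384, 317 and 448 CPM in Cont, a mean 28.6 times lower (log2 fold change -4.83, standard error 0.49, edgeR adjusted p = 2.94e-05). Scd1 had 1040.0, 675, 564 and 853 CPM against 3134, 2483, 2742 and 3663 CPM (log2 fold change -1.94, standard error 0.28, edgeR adjusted p = 0.000230). Dgat2, which makes triglycerides, had 70.8 ± 31.7 CPM (SD, n = 4) against 164 ± 5.61 CPM (log2 fold change -1.21, standard error 0.30, edgeR adjusted p = 0.00751). Of 16 sebaceous genes 5 were lower and 1 higher. The higher gene was Far2, an enzyme of wax synthesis, with a log2 fold change of 0.59 (edgeR adjusted p = 0.0430), which lost its call without any of the Cont libraries (edgeR adjusted p = 0.0526 to 0.120) and without LowAhR+AD replicate 2, 3 or 4 (edgeR adjusted p = 0.106, 0.0940 and 0.0963) and by limma voom. Of 29 genes of ceramide and barrier lipid synthesis 7 were lower and 2 higher, with a median of -0.33. Alox12e, an epidermal lipoxygenase, had 14.4, 17.2, 59.4 and 28.99 CPM against 358, 336, 450.4 and 345 CPM (log2 fold change -3.63, standard error 0.71, edgeR adjusted p = 0.00180). Elovl6, a fatty acid elongase, had 202 ± 57.2 CPM against 534 ± 119 CPM (log2 fold change -1.40, standard error 0.28, edgeR adjusted p = 0.00224) and Fa2h, which hydroxylates the fatty acids of ceramides, had 154 ± 27.2 CPM against 383 ± 107 CPM (log2 fold change -1.32, standard error 0.30, edgeR adjusted p = 0.00500). Elovl4, which makes the very long acyl chains of barrier ceramides, had 689, 1031, 767 and 1469 CPM against 1079, 774, 945 and 826 CPM and was not called (log2 fold change 0.13, standard error 0.28, edgeR adjusted p = 0.791).

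Hair follicle, muscle, fat and matrix genes moved with the groups, and the part of tissue composition in the other results was not tested. All 21 tested keratins of the hair shaft and inner root sheath lay above Cont without overlap and 20 were called higher (8 by limma voom), with a median of 6.62. The summed level of the list was 6595 to 29884 CPM in LowAhR+AD and 39.2 to 676 CPM in Cont, and 86.9 to 10802 CPM in LowAhR. Krt25, of the inner root sheath, had 2528, 5542, 3289 and 3551 CPM in LowAhR+AD and 0, 82.95, 78.6 and 229 CPM in Cont (log2 fold change 5.26, standard error 1.27, edgeR adjusted p = 0.00711), and Krt81, of the hair shaft, had 633, 10773, 5301 and 7173 CPM against 0, 0, 17.8 and 85.4 CPM (log2 fold change 7.85, standard error 1.84, edgeR adjusted p = 0.00597), which limma voom did not call. In the stretch of chromosome 11 that holds the type I keratins and their keratin-associated proteins (chr11:99315516-100269951, beginning with Krt25 and bounded after its values were seen), 47 of 55 tested genes were higher and 0 lower. Of the 12 largest rises of the called genes without overlap and with a group mean of at least 50 CPM, 6 were keratin-associated proteins of the hair shaft. Krtap19-5 had 11.1, 1626, 1029 and 1534 CPM in LowAhR+AD and 0, 0, 0.247 and 0.958 CPM in Cont. Krtap15 had 23.4, 2829.6, 2099 and 2671 CPM against 0, 0, 0.740 and 5.99 CPM, and Krtap19-9b had 69.1, 3206, 1969 and 3117 CPM against 0, 0, 2.47 and 13.9 CPM. Replicate 1 was the lowest LowAhR+AD library in each, and by limma voom none of the 6 was called. Krtap1-3, with 1 count in all Cont libraries together, had a mean in LowAhR+AD that was higher by 3727-fold (95% counting interval 660.1 to 145264). Krtap19-1, Krtap19-2, Gprc5d, an orphan receptor of the hair follicle, and Gm11938 had counts in Cont replicate 4 alone of the Cont libraries, and no fitted rise is given for them. Their levels in LowAhR+AD were 17.2 to 870.1, 19.8 to 1142, 8.85 to 267 and 20.6 to 315 CPM, and limma voom called neither Gprc5d nor Gm11938. Of 24 regulators of the follicle 8 were higher and 3 lower, and the former number was 5 and 4 without Cont replicate 3 and 4. Cd34, made by bulge stem cells and by vessels and dermal cells, had 541, 361, 427 and 400.0 CPM against 988, 2375, 1825 and 2143 CPM (log2 fold change -2.08, standard error 0.32, edgeR adjusted p = 0.000321). Of 7 melanocyte genes 3 were higher and 0 lower, and Tyrp1, an enzyme of melanin synthesis, had 23.05, 28.6, 36.1 and 33.9 CPM against 0, 6.33, 1.36 and 1.20 CPM (log2 fold change 3.77, standard error 0.95, edgeR adjusted p = 0.00920).

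Of 27 skeletal muscle genes 17 were lower and 0 higher, with a median of -1.97. Their summed level was 772 to 6737 CPM in LowAhR+AD and 14696 to 26058 CPM in Cont, and 18538 to 38859.8 CPM in LowAhR. Myh1, a fast myosin heavy chain, had 158, 37.7, 10.9 and 45.7 CPM against 1474, 793, 632 and 1066 CPM (log2 fold change -3.97, standard error 0.63, edgeR adjusted p = 0.000439), and Ttn, titin, had 227 ± 196 CPM (SD, n = 4) against 1747 ± 772 CPM (log2 fold change -2.94, standard error 0.60, edgeR adjusted p = 0.00229). Csrp3, a muscle LIM protein, and Pdk4, a brake on pyruvate oxidation in muscle and other tissues, were among the 12 largest falls of the called genes without overlap and with a group mean of at least 50 CPM (-3.72 and -3.80 on the log2 scale, edgeR adjusted p = 0.00167 and 0.00903). Of 18 adipocyte genes 8 were lower and 0 higher, with a median of -0.75. Car3, a carbonic anhydrase abundant in fat, had 10.8, 81.7, 92.3 and 88.2 CPM against 468, 376, 366 and 595 CPM (log2 fold change -2.73, standard error 0.56, edgeR adjusted p = 0.00241), while Fabp4, the fatty acid carrier of fat and of capillaries, had 111, 1394, 1243 and 2194 CPM against 1211, 1222, 1573 and 2727 CPM and was not called (log2 fold change -0.45, standard error 0.55, edgeR adjusted p = 0.615). Of 14 endothelial genes 1 was higher, Pecam1, a junction protein of vessels and of blood cells (log2 fold change 1.27, standard error 0.34, edgeR adjusted p = 0.0118), and 1 lower, Cldn5, the claudin of vessels (log2 fold change -1.49, standard error 0.39, edgeR adjusted p = 0.0117). Leaving out LowAhR+AD replicate 2 gave 2 higher genes and leaving out replicate 1 gave 2 lower ones.

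**Figure D4:**
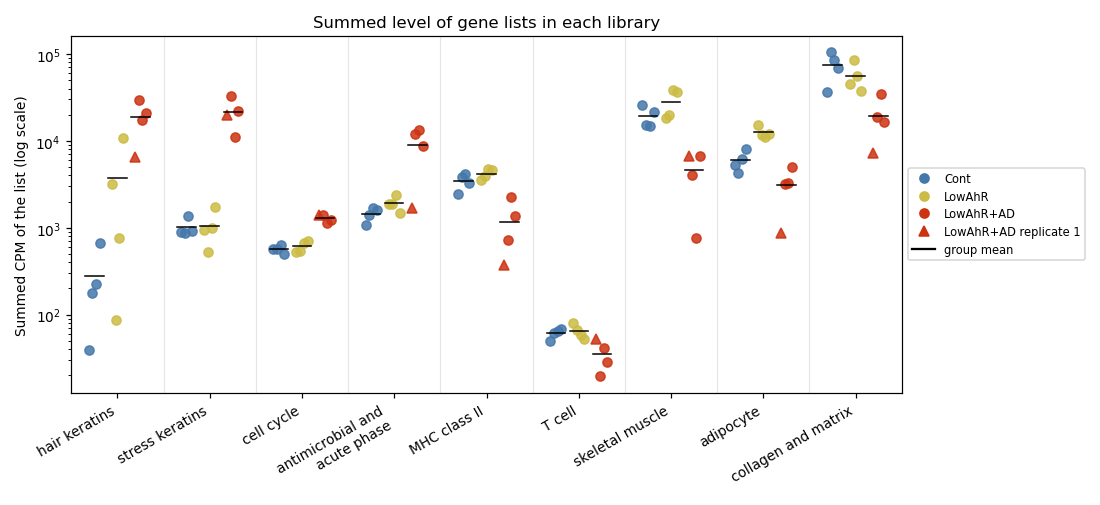
Summed CPM of 9 gene lists in each Cont, LowAhR and LowAhR+AD library, on a log axis. Each point is 1 library, the triangle is LowAhR+AD replicate 1 and the black line is the group mean. The hair keratin sum is 39.2 to 676 CPM in Cont and 6595 to 29884 CPM in LowAhR+AD, and the muscle sum is 14696 to 26058 CPM in Cont and 772 to 6737 CPM in LowAhR+AD, without overlap in either.

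The type I collagens, the main protein of the dermis, took a smaller share of the reads. Col1a1 had 2455, 1844, 5036 and 1583 CPM in LowAhR+AD and 12879.9, 20013, 15623 and 10945 CPM in Cont (log2 fold change -2.45, standard error 0.43, edgeR adjusted p = 0.000921). Col1a2 had 424, 2712, 6085 and 1948 CPM against 7911, 24141, 21975 and 15846 CPM (log2 fold change -2.65, standard error 0.58, edgeR adjusted p = 0.00373), and both were apart. Sparc, a collagen-binding matrix protein, had 1767, 4286, 7584 and 4113 CPM against 7073, 31205, 23748 and 18036 CPM, with an overlap (log2 fold change -2.17, standard error 0.49, edgeR adjusted p = 0.00482). In all, 7 of 23 matrix genes were lower and 5 higher, with a median of 0.055. Without LowAhR+AD replicate 3, 10 were lower and 3 higher, and without LowAhR+AD replicate 1, 8 were lower and 4 higher. Of 19 matrix proteases and inhibitors 4 were higher and 0 lower, and without LowAhR+AD replicate 4, 1 was higher and 1 lower. Timp1, an inhibitor of metalloproteases, had 65.3, 58.3, 33.3 and 92.03 CPM against 2.70, 6.98, 2.22 and 0.120 CPM (log2 fold change 4.37, standard error 0.75, edgeR adjusted p = 0.000783). Without LowAhR+AD replicate 1, 6 of the list were higher and 2 lower, without LowAhR+AD replicate 3, 1 was lower, and without Cont replicate 3, 2 were higher.

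Of 13 antioxidant genes of the NRF2 pathway, 4 were higher and 1 lower. Prdx1, a peroxiredoxin, had 337, 514, 423 and 681 CPM in LowAhR+AD and 159, 134, 161 and 192 CPM in Cont (log2 fold change 1.60, standard error 0.26, edgeR adjusted p = 0.000474), and Gpx2, a glutathione peroxidase of epithelia, had 387, 53.8, 11.3 and 45.5 CPM against 5.65, 2.84, 0.123 and 1.20 CPM (log2 fold change 5.67, standard error 1.14, edgeR adjusted p = 0.00216), which limma voom did not call. The lower gene was Me1, a malic enzyme that feeds fat synthesis, with 104 ± 30.9 CPM (SD, n = 4) against 260.4 ± 18.4 CPM (log2 fold change -1.33, standard error 0.25, edgeR adjusted p = 0.00131). Of 17 genes of the glycolysis and glucose uptake list 4 were higher, Hif1a among them, and 1 was lower. Hif1a, the hypoxia-inducible factor, had 161, 120.2, 85.6 and 116 CPM against 18.4, 40.1, 46.02 and 26.2 CPM (log2 fold change 1.89, standard error 0.30, edgeR adjusted p = 0.000402). The lower gene of this list was Hk2, a hexokinase (log2 fold change -0.73, standard error 0.18, edgeR adjusted p = 0.00672). Of 17 clock genes 6 were lower and 0 higher, with a median of -1.03. Clock itself had 54.2, 34.3, 28.8 and 26.3 CPM against 84.7, 63.8, 72.7 and 56.03 CPM (log2 fold change -0.95, standard error 0.24, edgeR adjusted p = 0.00953), and Bhlhe41, a repressor of the clock, had 12.1 ± 2.04 CPM against 24.7 ± 4.84 CPM (log2 fold change -1.03, standard error 0.25, edgeR adjusted p = 0.00687). The hour of sampling is not given in the sources used here.

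Fcgbp, a mucin-like protein that binds IgG, had 15.3, 9.44, 13.8 and 13.4 CPM in LowAhR+AD and 494, 316, 396 and 301 CPM in Cont, a mean 29.01 times lower (log2 fold change -4.86, standard error 0.68, edgeR adjusted p = 0.000205). H2-M2, a class I-like histocompatibility gene, had 0, 1.56, 3.26 and 2.41 CPM against 102, 48.1, 87.2 and 86.3 CPM and had the largest fall of the called genes without overlap and with a group mean of at least 50 CPM (log2 fold change -5.47, standard error 0.96, edgeR adjusted p = 0.000860). Clca3a2, of the chloride channel regulator family, had 3.51, 6.89, 18.03 and 7.95 CPM against 309, 221, 270.3 and 174 CPM (log2 fold change -4.74, standard error 0.64, edgeR adjusted p = 0.000166). Cyp2f2, a cytochrome P450 outside the CYP1 family, had 4.50, 35.1, 35.4 and 28.1 CPM against 351, 619.9, 554 and 809 CPM (log2 fold change -4.50, standard error 0.62, edgeR adjusted p = 0.000192), with 94.99 to 405 CPM in LowAhR. These 4 genes were named by a rule that required no overlap between the groups, so that their separation is no further result. Sema3d, a secreted guidance protein, Myoc, myocilin, and Abca5, a lipid transporter, fell by log2 fold changes of -4.22, -4.00 and -3.80 (edgeR adjusted p = 0.00243, 0.000229 and 5.82e-05). Hamp2, a relative of hepcidin, had a log2 fold change of -4.34 and was not called without Cont replicate 4 or LowAhR+AD replicate 2 or 4 (edgeR adjusted p = 0.0507, 0.0543 and 0.0587).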

How the data were processed

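The members and gene lists were chosen with earlier results of these data known. Total RNA of dorsal skin (1 mouse per library) was extracted with Trizol and made into Lexogen QuantSeq 3′ mRNA libraries. For each of the 16 libraries the authors deposited a table of raw read counts per gene symbol, not normalized. All had the same 23282 rows (35 symbols fill several rows). The submitters' processing notes name mm10, Bowtie2 and bedtools; their settings, and whether strand was used, are not given in the sources used here.

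The 16 libraries were fitted in 1 model of 4 groups with edgeR 4.0.16 in R 4.3.3 (TMM factors, filterByExpr with a minimum count of 10 and total of 15, quasi-likelihood test, all libraries sharing 1 spread), and LowAhR+AD was contrasted with Cont. P-values were adjusted by Benjamini-Hochberg over 14854 genes, and a gene was called at an adjusted p under 0.05. CPM used TMM library sizes. Fold changes against 0 counts in all Cont libraries were set against 3 counts per library. Genes named were the 12 largest called rises and falls without overlap and with a group mean of at least 50 CPM, 15 genes the study plots, and per list the 4 called and 2 uncalled members with the highest mean CPM. Any other gene is said to be chosen after its values were seen.

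Alternatives were DESeq2 1.42.0, limma 3.58.1 (voom), other scaling factors and filters, thinned counts, a replicate block, fewer libraries and a minimum change. The pipeline was tested on simulated data. Replicate numbers were not taken to pair the libraries. The deviations of LowAhR+AD and Cont libraries with the same number had correlations of 0.155, -0.018, 0.078 and 0.109. Libraries with different numbers were not compared, so that these values cannot decide whether the numbers pair the libraries. Libraries of a group differed beyond sampling noise, so that none was counted as a copy. Of the 23238 symbols, 23119 matched RefSeq by symbol or older symbol.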

Additional observations from a re-analysis of the deposited data

Results flagged for a closer look

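In groups of 4 libraries, a library was singled out where its gap to the nearest other, divided by the range of the group, passed Dixon's 95% critical value. Over the 158 genes named above, 35 of 316 groups had such a library. A chance rate of about 1 in 20 would hold for normally distributed values, which CPM need not be. A group with counts in 1 library alone has a ratio of gap to range of 1 at any level. The number 35 is therefore not to be read against 1 in 20. No explanation was weighed.

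In 11 of the 35, LowAhR+AD replicate 3 was the highest library of its group, mostly in genes of late epidermal differentiation. The ratio was 0.8295 for Lor (3132 CPM), 0.875 for Flg2 (492 CPM), 0.954 for Krt10 (4021 CPM), 0.947 for Krt1 (3495 CPM), 0.844 for Stfa3 (3318 CPM), 0.957 for Lce1m (378 CPM) and 0.922 for Lce6a (437 CPM). It was 1 for Sprr3 (0.777 CPM), Il22ra2 (1.55 CPM), Cd3e (0.155 CPM) and Il13 (0.622 CPM), where all or nearly all counts came from that library.

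LowAhR+AD replicate 1 was the highest library in Krt5 (ratio 0.871, 6185 CPM) and Gpx2 (0.887, 387 CPM) and the lowest in Far2 (0.885, 66.0 CPM), Cgn (0.930, 5.11 CPM) and Car3 (0.870, 10.8 CPM). LowAhR+AD replicate 4 was the highest in Krt14 (0.909, 4193 CPM).

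Among the Cont libraries, replicate 4 held all counts of Krtap19-1 (ratio 1, 2.51 CPM), Krtap19-2 (1, 1.56 CPM), Gprc5d (1, 1.20 CPM) and Gm11938 (1, 1.68 CPM) and was the highest in Krtap15 (0.876, 5.99 CPM) and Tgm3 (0.882, 44.9 CPM). Cont replicate 3 was the highest in Krtap1-3 (1, 0.123 CPM), Ccr3 (1, 0.494 CPM), Cyp1b1 (0.843, 82.3 CPM), Epgn (0.847, 16.8 CPM), Cd207 (0.887, 15.5 CPM) and Aldh3a1 (0.871, 159 CPM). Cont replicate 1 was the highest in Sprr2b (1, 1.67 CPM) and Ttn (0.848, 2893 CPM). Cont replicate 2 was the highest in Cyp1a1 (0.874, 23.4 CPM) and the lowest in S100a11 (0.876, 385 CPM), Krt1 (0.842, 449.5 CPM) and Sprr2h (0.866, 0 CPM).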

How the results depend on the processing

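Of the counts of called genes, only those with a test for a change of at least 2-fold moved by over 1.5 times, to 559 called, 334 higher and 225 lower. Leaving out 1 library gave 2459 to 3486 called genes, 1365 to 1896 higher and 1060 to 1590 lower. The remaining settings gave 2351 (only the 8 libraries) to 3886 (DESeq2). With the replicate block, whose numbers are not known to pair the libraries, 2990 genes were called, 1634 higher and 1356 lower. The fit of the 8 libraries without LowAhR+AD replicate 1, added after the data were seen, called 3477. No scaling moved the median of all genes by over 0.1 on the log2 scale.

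Of the 153 named genes with a test, limma voom lost the call of 24, which were Cxcl5, Il24, Il1b, Postn, Sprr2d, Sprr2h, Lce3d, Krt81, Gpx2, Lcn2, Cxcr2, Clec4d, Ccr3, Far2, Rptn, S100a3, Gprc5d, Gm11938 and the 6 named Krtap genes, and called Krt10, Defb6 and Lce1m as well. The 2-fold test lost 52. Fitting only the 8 libraries lost 5 (Sprr2d, Krt5, Far2, Egr3 and Gbp3). Genes that were not called changed direction in 10 cases: Krt1 by limma voom (-0.51), with the replicate block (-0.0071) and without LowAhR+AD replicate 3 (-1.44), Lce6a in the same settings (-1.33, -0.64 and -2.14), Elovl4 without LowAhR+AD replicate 4 (-0.13), Spink5 without LowAhR+AD replicate 1 (0.13) and in the 8 libraries without it (0.14), and C1qb by limma voom (-0.037). With 1 library left out, the range was -1.44 to 1.11 for Krt1, -2.14 to 0.77 for Lce6a, -0.13 to 0.25 for Elovl4 and -0.38 to 0.13 for Spink5. The causes were not tested.

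A gene without counts in LowAhR+AD replicate 1 cannot be read as absent, since 38.2% of genes expected at 20 to 40 counts had none there, although its total of 11336051 counts exceeded that of every Cont library.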
